A study of Homo sapiens with 6 samples.

Results

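The 10 cadherin genes CDH1, CDH2, CDH4, CDH8, CDH10, CDH11, CDH12, CDH13, CDH18 and CDH23 were examined for the stretches of DNA that stay bound to the nuclear matrix. A region was assigned to a gene when it overlapped the gene body by at least 1 bp in the RefSeq gene table of GRCh38. These were 10 of 20037 protein-coding genes, and they held 41 of 40106 regions in hPSC, 62 of 39368 in shLUC and 53 of 36277 in shHNRNPU. MAR-seq (sequencing of matrix attachment regions) had been carried out in H1 cells, an established line of human embryonic stem cells, with 2 samples in each of 3 groups. All 3 groups were the same line in the pluripotent state, grown without feeder cells. The hPSC group was untreated, the shLUC group carried a short hairpin RNA that targets LUC and is taken here as the hairpin control, and the shHNRNPU group carried a hairpin that targets HNRNPU, a nuclear RNA-binding protein also known as scaffold attachment factor A. Each group was given as 1 list of regions, each 400 bp wide, with no read depth, height or expression value, so the knockdown could not be checked and no value below has a replicate error.

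Cadherins are membrane proteins that hold neighbouring cells together in the presence of calcium. In the classical cadherins the part outside the cell binds cadherins of the next cell, and the cytoplasmic tail binds catenins, which connect the junction to actin. CDH1 (E-cadherin) holds epithelial and pluripotent cells together, CDH2 (N-cadherin) is used as cells leave that state and in neural tissue, and many of the other family members are known from particular sets of neurons. Among the 10 genes, CDH1, CDH2 and CDH4 encode type I cadherins, and CDH8, CDH10, CDH11, CDH12 and CDH18 encode type II cadherins. CDH13 encodes a cadherin that is tied to the membrane by a lipid anchor and has no cytoplasmic tail, and CDH23 encodes a long cadherin of the tip links of hair cells, so neither is a classical cadherin in the strict sense.

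Among the promoter windows available, windows of CDH2, CDH8 and CDH18 were reached by a matrix region. The RefSeq table gave 16 promoter windows for 7 of the 10 genes, each from 250 bases before to 50 bases after an annotated start. Of these, 2 overlapped an hPSC region, 1 overlapped a shLUC region and 1 overlapped a shHNRNPU region, that is 12.5% (95% exact binomial interval 1.55 to 38.3), 6.25% (0.158 to 30.2) and 6.25%. Of all 35116 windows 23.1%, 12.3% and 13.0% did so, which lay inside these intervals. No window was given for CDH1, CDH11 and CDH13, and none at the start of the CDH4 gene body. Regions at the lower boundary of CDH1 and at the CDH4 start, described below, could therefore not enter these counts. The 3 windows that a region reached are shown first, and the CDH10 window, which no region reached, follows as a contrast. They are read 5′ to 3′ on the minus strand of GRCh38.p14, and capitals mark the bases inside a matrix region. The CDH2 window (chr18:28177081-28177380) shares 175 bases with a region found at the same place in shLUC and shHNRNPU, and the hPSC list came no closer than 1084 bases.
CDH2: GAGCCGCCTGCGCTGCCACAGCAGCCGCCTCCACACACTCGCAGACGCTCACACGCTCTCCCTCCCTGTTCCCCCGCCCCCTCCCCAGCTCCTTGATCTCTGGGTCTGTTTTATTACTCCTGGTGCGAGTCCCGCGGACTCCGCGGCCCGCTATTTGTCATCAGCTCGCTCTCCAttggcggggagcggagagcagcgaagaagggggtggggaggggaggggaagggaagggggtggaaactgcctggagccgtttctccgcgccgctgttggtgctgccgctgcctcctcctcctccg
The second CDH8 window (chr16:62035137-62035436) shares 89 bases with an hPSC region, and the internal CDH18 window (chr5:19988151-19988450) shares 130 bases with another.
CDH8: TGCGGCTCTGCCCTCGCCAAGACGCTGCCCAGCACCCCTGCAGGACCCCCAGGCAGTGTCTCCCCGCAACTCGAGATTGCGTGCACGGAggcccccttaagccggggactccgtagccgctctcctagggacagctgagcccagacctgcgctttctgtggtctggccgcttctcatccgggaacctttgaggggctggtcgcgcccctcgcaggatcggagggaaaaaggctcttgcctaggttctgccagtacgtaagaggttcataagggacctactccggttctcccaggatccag
CDH18: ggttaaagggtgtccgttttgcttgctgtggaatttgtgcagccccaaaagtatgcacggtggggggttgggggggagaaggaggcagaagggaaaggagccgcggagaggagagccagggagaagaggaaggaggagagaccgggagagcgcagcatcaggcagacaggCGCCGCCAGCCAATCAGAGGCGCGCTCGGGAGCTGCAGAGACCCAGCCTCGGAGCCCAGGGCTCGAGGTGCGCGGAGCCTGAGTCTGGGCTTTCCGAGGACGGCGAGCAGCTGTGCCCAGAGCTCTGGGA
The CDH10 window (chr5:24644929-24645228) was 20244 bases from the nearest hPSC region, 122612 bases from the nearest shLUC region and 60986 bases from the nearest shHNRNPU region.
CDH10: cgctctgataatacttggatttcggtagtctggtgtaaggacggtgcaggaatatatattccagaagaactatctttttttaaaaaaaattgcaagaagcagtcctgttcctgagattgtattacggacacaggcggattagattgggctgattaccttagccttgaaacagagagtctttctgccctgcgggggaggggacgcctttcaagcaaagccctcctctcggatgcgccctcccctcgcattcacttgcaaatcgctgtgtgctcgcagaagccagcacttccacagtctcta

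Per the labels, the nuclei were digested with 6 restriction enzymes, whose sites were counted in these windows. The sites are palindromes and read alike on both strands. MspI cuts CCGG, HaeIII cuts GGCC, RsaI cuts GTAC and AluI cuts AGCT. BamHI cuts GGATCC, and PvuII cuts CAGCTG, which contains an AluI site. The CDH2 window held 1 HaeIII and 2 AluI sites. The CDH8 window held 3 MspI, 2 HaeIII, 1 RsaI, 1 AluI, 1 BamHI and 1 PvuII site, and the CDH18 window held 1 MspI, 3 AluI and 1 PvuII site. The CDH10 window held 0 sites of the 6 enzymes, and 97.9% of all windows held at least 1. Over all windows, 63.1% held MspI, 79.0% HaeIII, 29.8% RsaI, 74.1% AluI, 6.83% BamHI and 17.9% PvuII. GC content was 67.0% in the CDH2 window, 63.7% in CDH8, 64.7% in CDH18 and 48.3% in CDH10, against a median of 58.7%. Of the windows without an overlap, 1 CDH4 window lay 86 bases from an hPSC region, and a pair of CDH23 windows lay 113 and 26 bases from hPSC regions.

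The 10 genes together were sparse in matrix regions. Over their 5.56 Mb, density was 7.38 regions per Mb in hPSC (95% exact Poisson interval 5.29 to 10.0), 11.2 in shLUC (8.55 to 14.3) and 9.54 in shHNRNPU (7.14 to 12.5). The 3356 protein-coding genes of at least 100 kb held 14.2, 14.9 and 13.7 regions per Mb. All 3 densities over the cadherin genes lay below those of long genes, in the order shLUC, shHNRNPU, hPSC. Single genes lay above the long-gene densities, among them CDH1 in hPSC and CDH4 in shLUC, as given below. Genes were not matched in length, and CDH12, CDH13 and CDH18 are far longer than 100 kb, so the part of length was not tested. The 48 other genes of the cadherin system described below were about as sparse when pooled, though their families varied. They held 7.80 regions per Mb in hPSC, 10.45 in shLUC and 10.54 in shHNRNPU, so the low density was not particular to the 10 genes. The intervals cover counting error only, and since lists share regions their counts are not independent. At least 1 region was found in 9 of the 10 genes in hPSC, 9 in shLUC and 10 in shHNRNPU. Among all protein-coding genes 57.8%, 52.7% and 52.0% held a region in those lists, and among genes of at least 100 kb 92.5%, 92.0% and 91.5% did, so these counts were near the background of long genes.

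**Figure D1:**
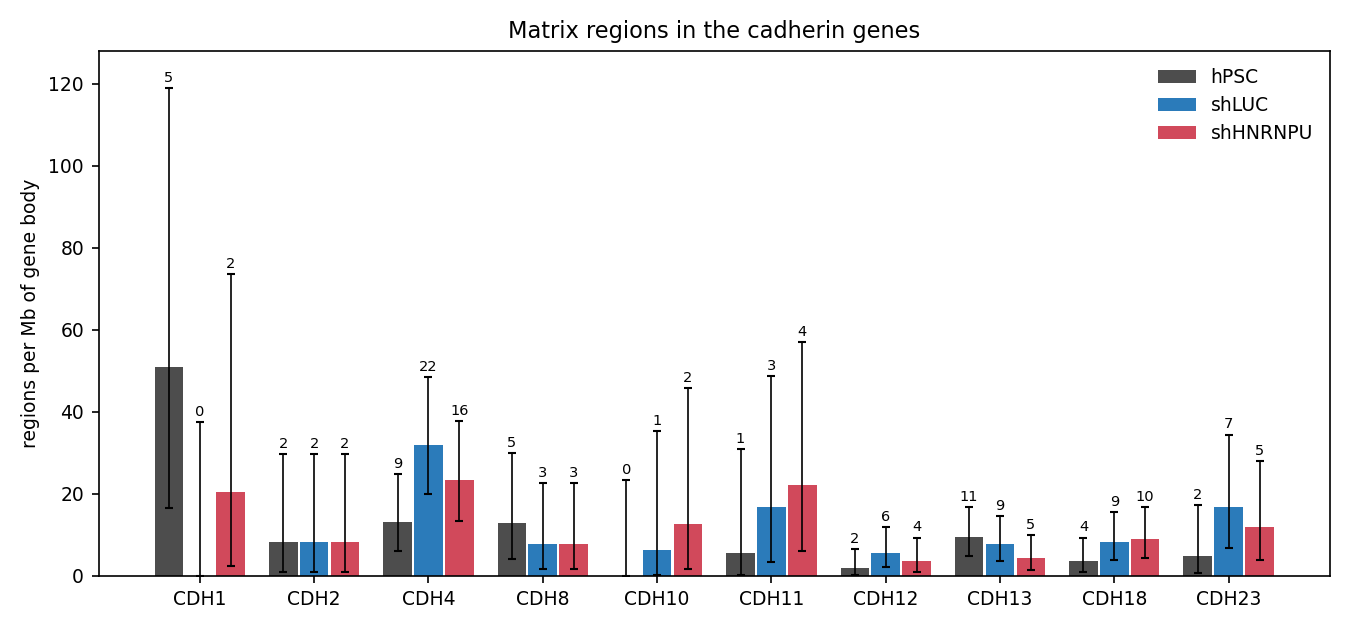
Regions per Mb of gene body (y axis) for each cadherin gene in hPSC, shLUC and shHNRNPU. Bars are densities from 1 list each, whiskers are 95% exact Poisson intervals that cover counting error only, and the number above a bar is the count of regions: CDH1 runs from 0 to 5 regions, and CDH4 reaches 22 in shLUC.

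CDH1 had the widest spread in density between the lists. The gene (chr16:68737292-68835537, 98.2 kb) held 5 regions in hPSC, 0 in shLUC and 2 in shHNRNPU, which are 50.9, 0 and 20.4 per Mb. The count of 0 in shLUC allows a density of up to 37.6 per Mb, and the hPSC interval ran from 16.5 to 118.8, so the intervals of these lists overlapped. The hPSC density was higher than that of 97.5% of protein-coding genes of at least 50 kb, and the shHNRNPU density higher than that of 68.8%. Among the same genes, 16.65% had no shLUC region, so a count of 0 there was not rare. One hPSC region (chr16:68736961-68737360) lay across the lower boundary of the gene, with 69 of its bases inside. The others lay 26.3, 41.7, 53.7 and 63.3 kb from that boundary, so no list had a region in the part of the gene above these. The region at chr16:68763349-68763748 had the same coordinates in hPSC and shHNRNPU, and the other shHNRNPU region lay at chr16:68777964-68778363. CDH1 was the one gene of the 10 without a shLUC region, and CDH10 the one without an hPSC region.

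CDH2 held the same number of regions in each list, and its hPSC regions did not overlap those of the hairpin lists. The gene (chr18:27932879-28177130, 244 kb, minus strand) held 2 regions in each list, or 8.19 per Mb. Both hairpin lists had them at chr18:27940994-27941393, which also lies in the antisense gene CDH2-AS1, and at chr18:27970974-27971373, that is 236 and 206 kb from the start. The hPSC regions lay 1.33 kb from the start (chr18:28175598-28175997) and 191 kb from it. Of the complete hPSC list only 14.0% overlapped a shLUC region and 15.6% a shHNRNPU region, so 0 of 2 lay near that background. The 2 regions common to the hairpin lists stood beside 70.8% of the complete shLUC list. In the hairpin lists a further region (chr18:28177206-28177605) lay 76 bases outside the gene body, at the promoter window printed above, and is not among the 2. CDH2 thus had a matrix region near its start in all 3 lists, upstream of the gene in the hairpin lists and inside it in hPSC.

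CDH4 (R-cadherin, chr20:61252261-61940617, 688 kb, plus strand) held the most regions of the 10 genes in the hairpin lists. It held 9 regions in hPSC, 22 in shLUC and 16 in shHNRNPU, or 13.1, 32.0 and 23.2 per Mb. The intervals were 5.98 to 24.8, 20.03 to 48.4 and 13.3 to 37.8, so each list's interval overlapped the others. The shLUC density was higher than that of 90.1% of genes of at least 100 kb, the shHNRNPU density higher than that of 79.2% and the hPSC density higher than that of 44.2%. Regions thickened towards the end of the gene in shLUC, where 4 lay in the first, 5 in the middle and 13 in the last of 3 equal parts. At its start, both hairpin lists held a region at chr20:61252173-61252572. The nearest hPSC region there (chr20:61251828-61252227) overlapped that region but ended 34 bases before the gene, so it is not counted in CDH4, although the 3 lists meet at this site.

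The type II genes CDH10, CDH12 and CDH18, all on chromosome 5, were the 3 sparsest of the 10 genes in hPSC. Together they held 6 regions in hPSC, 16 in shLUC and 16 in shHNRNPU over 2.36 Mb, or 2.54 per Mb (0.931 to 5.52) against 6.77 (3.87 to 11.0) in each hairpin list. The intervals overlapped, and the log2 ratio of hPSC to either hairpin list was -1.42 (-3.06 to 0.01). Because these genes are the sparsest in hPSC, a low pooled value there follows, and the contrast is a description only. CDH12 (chr5:21750673-22853344, 1103 kb) held 2 regions in hPSC, 6 in shLUC and 4 in shHNRNPU, or 1.81, 5.44 and 3.63 per Mb. The densities of CDH12 were higher than those of 7.66%, 12.9% and 10.2% of long genes, so it stayed near the low end in all 3 lists. CDH18 (chr5:19471296-20575713, 1104 kb) held 4, 9 and 10 regions, or 3.62, 8.15 and 9.06 per Mb. CDH10 (chr5:24487100-24644978, 158 kb) held 0, 1 and 2 regions, and the 0 in hPSC allows up to 23.4 per Mb. In CDH18 the 4 hPSC regions were gathered between 299 and 588 kb from the start, while the hairpin lists reached from 49.3 kb to 1090 kb. No hPSC region of these 3 genes overlapped a region of either hairpin list. Of the complete hPSC list only 14.0% overlapped a shLUC region and 15.6% a shHNRNPU region, so 0 of 6 lay near that background.

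The other type II genes differed between the lists in opposite directions. CDH8 (chr16:61647250-62036438, 389 kb, minus strand) held 5 regions in hPSC, 3 in shLUC and 3 in shHNRNPU, or 12.8, 7.71 and 7.71 per Mb. CDH11 (OB-cadherin, chr16:64943753-65123744, 180 kb) held 1, 3 and 4 regions, or 5.56, 16.7 and 22.2 per Mb. CDH8 was thus higher in hPSC and CDH11 lower, each by few regions and with overlapping intervals. Near the CDH8 start, hPSC had a region at chr16:62035348-62035747 and shHNRNPU one at chr16:62035763-62036162, side by side without overlap. In the antisense gene CDH8-AS1, the hPSC and shLUC lists had regions 1 bp apart, at chr16:61918430-61918829 and chr16:61918431-61918830. The 3 CDH11 regions of shLUC were all found again in shHNRNPU, beside 70.8% of the complete shLUC list.

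Both genes outside the classical group also ran in opposite directions. CDH13 (T-cadherin, chr16:82626969-83800640, 1174 kb) held 11 regions in hPSC, 9 in shLUC and 5 in shHNRNPU, or 9.37 (4.68 to 16.8), 7.67 (3.51 to 14.6) and 4.26 per Mb (1.38 to 9.94). CDH23 (chr10:71396920-71815947, 419 kb, plus strand) held 2, 7 and 5 regions, or 4.77, 16.7 and 11.9 per Mb. CDH13 was highest in hPSC and CDH23 lowest there. CDH13 also held a site present in all 3 lists, 1.11 kb from its lower boundary in hPSC and 1.13 kb in the hairpin lists, at chr16:82627881-82628280 in hPSC and chr16:82627903-82628302 in both hairpin lists. CDH23 had a shLUC region 0.59 kb inside its start (chr10:71397311-71397710), and the hPSC region nearest the start lay 363 bases outside the gene. One CDH23 region of both hairpin lists (chr10:71715904-71716303) also lies in the protein-coding gene C10orf105 within CDH23. For the other 9 genes no second protein-coding gene overlapped the body.

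**Figure D2:**
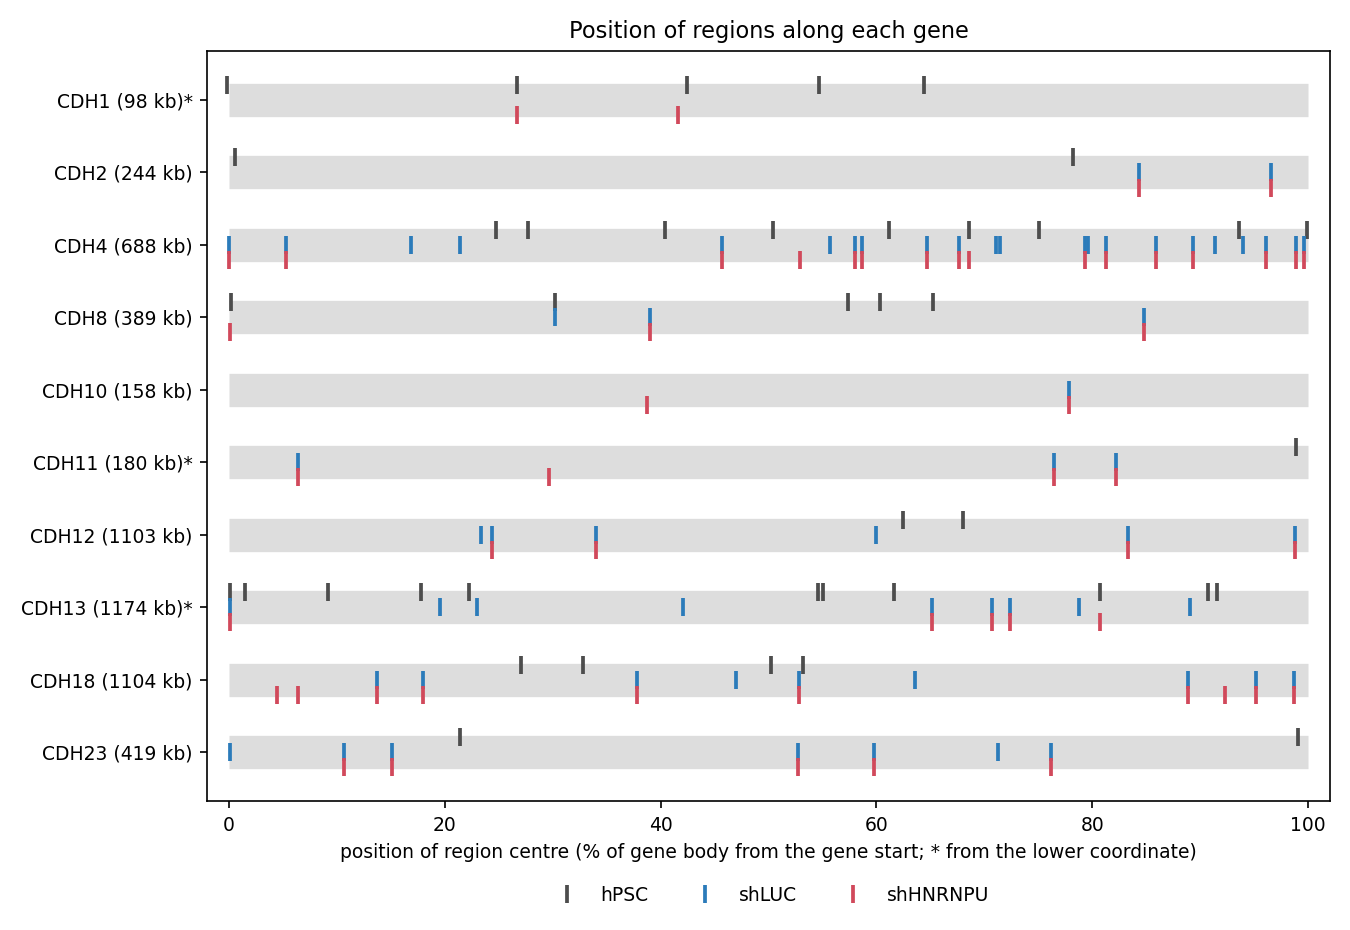
Position of each region's centre along each cadherin gene as a percent of the gene body (x axis), counted from the gene start or, for the genes with an asterisk, from the lower coordinate. Ticks from top to bottom within a gene are hPSC, shLUC and shHNRNPU: blue and red ticks are stacked at most places, and dark grey ticks mostly stand alone.

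The question of HNRNPU knockdown was addressed by shHNRNPU against shLUC. The 10 genes held 53 regions against 62, a log2 ratio of -0.23 (-0.78 to 0.33 from counting error), beside 11793 against 12817 and -0.12 for long genes. Thus fewer regions were counted after knockdown, by an amount within counting error, and the ratio over long genes lay inside the interval. CDH4, CDH12, CDH13 and CDH23 had fewer regions in shHNRNPU, by 6, 2, 4 and 2. CDH1, CDH10, CDH11 and CDH18 had more, by 2, 1, 1 and 1, and CDH2 and CDH8 were equal. The 4 of 10 genes with fewer regions stood beside 38.9% of long genes, and the 4 of 10 with more beside 24.7%. Without CDH4 the log2 ratio was -0.11 and without CDH1 it was -0.28.

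Most regions of the hairpin lists were at identical places. Of the 62 shLUC regions, 42 (67.7%, 95% exact binomial interval 54.7 to 79.1) were present in shHNRNPU, and all 42 had the same coordinates. From the other side this was 79.2% of the 53 shHNRNPU regions (65.9 to 89.2). By overlap, the shares for the complete lists were 70.8% and 76.8%, both inside these intervals. Identical coordinates were not counted over the complete lists. How regions were called is unknown, so whether the hairpin lists got their coordinates separately cannot be told. The identity is therefore not read as attachment left unchanged by the knockdown. The 20 regions present in shLUC and not in shHNRNPU were spread over CDH4 (8), CDH13 (5), CDH12, CDH18 and CDH23 (2 each) and CDH8 (1). The 11 in the other direction lay in CDH18 (3), CDH1 and CDH4 (2 each) and CDH8, CDH10, CDH11 and CDH13 (1 each).

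The untreated list differed above all in place, as given further below, and its difference in number lay at the edge of counting error. The log2 ratio of hPSC to shLUC was -0.60 (-1.20 to 0.00) over the 10 genes and -0.07 over long genes. CDH1, CDH8 and CDH13 had more regions in hPSC, by 5, 2 and 2, and CDH2 was equal. CDH10, CDH11, CDH12, CDH18, CDH23 and CDH4 had fewer, by 1, 2, 4, 5, 5 and 13. The 6 of 10 genes with fewer regions stood beside 42.5% of long genes, and the 3 of 10 with more beside 37.6%. The ratio was -0.32 without CDH4 (-1.04 to 0.39) and -0.78 without CDH1 (-1.42 to -0.17), so its size depended on both genes. The hPSC and shLUC comparison shares the shLUC list with the knockdown comparison. Since the hPSC list was the only one without a hairpin, hairpin delivery and any difference in how the lists were made cannot be told apart.

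Of the 41 hPSC regions, 2 (4.88%, 0.596 to 16.5) overlapped a shLUC region and 4 (9.76%, 2.72 to 23.1) a shHNRNPU region. The complete hPSC list gave 14.0% and 15.6%, both within those intervals. From the other side, 3 of the 62 shLUC regions (4.84%, 1.01 to 13.5) and 5 of the 53 shHNRNPU regions (9.43%, 3.13 to 20.7) overlapped an hPSC region, against 14.2% and 17.3% of the complete lists. The shLUC share lay below that of its complete list by slightly more than counting error, and the other shares did not differ from theirs by more than it. Most hPSC regions in these genes had no counterpart in a hairpin list. When a distance of up to 5 kb was allowed, the count was 6 of 41 in shLUC (14.6%) and 9 of 41 in shHNRNPU (22.0%). Identical coordinates in hPSC and shHNRNPU were found 3 times, in CDH1, CDH4 (chr20:61724351-61724750) and CDH13 (chr16:83574365-83574764), and 0 of 41 hPSC regions had identical coordinates in shLUC. Shares within 5 kb and with identical coordinates were not computed over the complete lists, so these counts have no background.

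Joined where they overlapped, including regions just outside a gene that overlapped one inside it, the regions of the 10 genes made 109 sites. Of these, 36 were in hPSC only, 19 in shLUC only, 8 in shHNRNPU only and 40 in both hairpin lists but not in hPSC. The hPSC list shared 1 further site with shLUC, 3 with shHNRNPU and 2 with both, at the CDH4 start and near the lower boundary of CDH13. Those 2 sites were 1.83% of the 109, against 4.75% of 79766 sites in the complete lists, and 57.8% of the sites were in 1 list, against 59.7%. Of the 79766 sites, 32021 were in hPSC only, 9693 in shLUC only, 5928 in shHNRNPU only and 24047 in both hairpin lists alone. CDH4 had 13 sites common to the hairpin lists alone, CDH18 had 7, CDH23 had 5 and CDH12 had 4, and CDH1 had 0.

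**Figure D3:**
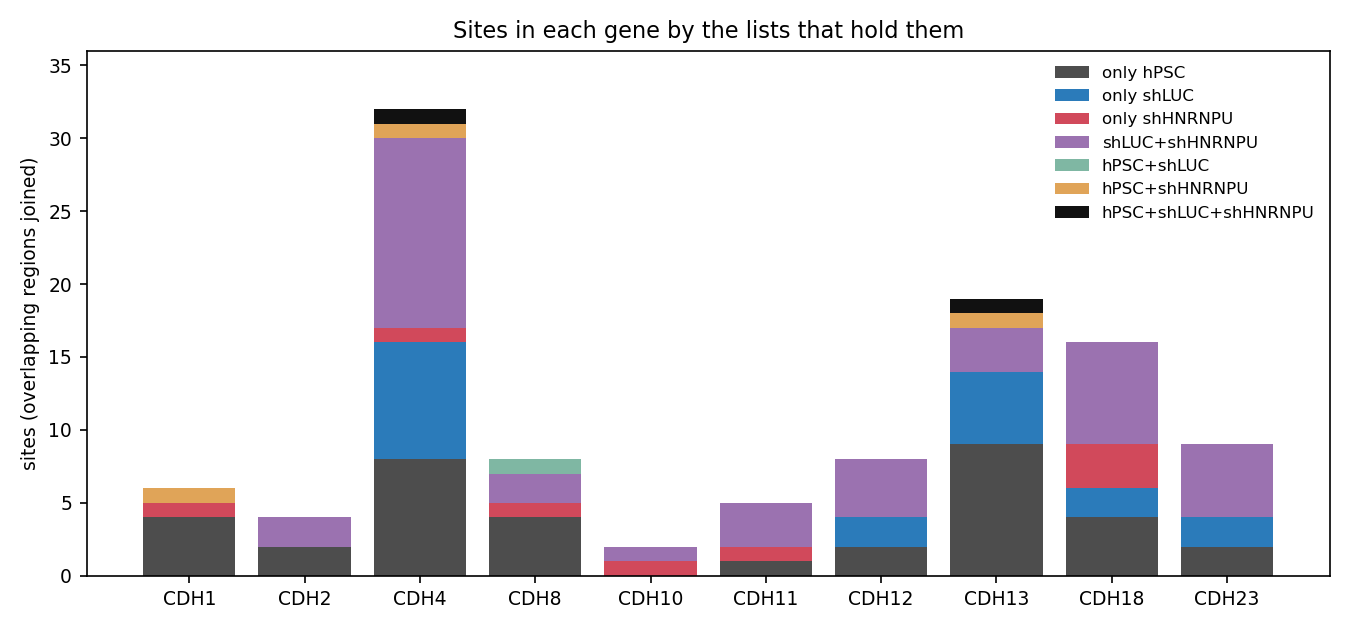
Number of sites in each cadherin gene (y axis), coloured by which of the 3 lists hold the site. Sites of both hairpin lists are the most frequent kind in CDH4 (13 of 32) and CDH18 (7 of 16), sites only in hPSC lead in CDH1 (4 of 6) and CDH13 (9 of 19), and CDH4 and CDH13 each have 1 site in all 3 lists.

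The genes active in stem cells or their early progeny, CDH1 and CDH2, were set against 6 long neural genes, CDH4, CDH8, CDH10, CDH12, CDH13 and CDH18. In hPSC the pair held 7 regions, 20.4 per Mb, and the neural genes 31 regions, 6.72 per Mb, a 3.04-fold difference (log2 1.61, counting interval 0.18 to 2.82). In shLUC the pair held 2 regions, 5.84 per Mb, against 50 and 10.8 per Mb (log2 -0.89, -3.98 to 1.04). In shHNRNPU it held 4 regions, 11.7 per Mb, against 40 and 8.67 per Mb (log2 0.43, -1.51 to 1.90). The pair was thus denser in hPSC and its intervals against the neural genes included 0 in both hairpin lists. The hPSC difference rested on CDH1: with CDH2 alone the log2 ratio was 0.29 in hPSC (-2.82 to 2.26), -0.40 in shLUC and -0.08 in shHNRNPU. It also rested on the region that lies mostly outside CDH1, since counting only regions with their centre inside the gene gave 1.38 (-0.17 to 2.67). CDH1 was the shortest of the 10 genes and the neural genes were mostly much longer, and the part of length in this difference was not tested.

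Spacing was measured between the centres of neighbouring regions in genes with 3 or more regions. The median over the cadherin genes was 52.6 kb for the hPSC regions, against 35.6 kb over long genes. It was 42.6 kb against 33.6 kb for shLUC, and 44.0 kb against 36.7 kb for shHNRNPU. The pooled median was thus wider for the cadherin genes in each list. A gap cannot exceed the gene that holds it, and the long genes were not matched in length, so the part of length was not tested. Single genes went the other way: CDH1 in hPSC and CDH4 in both hairpin lists had medians below those of long genes. The 5 hPSC regions of CDH1 had a median spacing of 13.7 kb. CDH4 had 59.7, 20.2 and 31.6 kb in hPSC, shLUC and shHNRNPU, and CDH13 had 83.9, 98.0 and 81.8 kb. The widest median was in CDH12, 170.5 kb in both hairpin lists, where it rested on 5 and 3 gaps. CDH13 held the widest single gap, 763 kb in shHNRNPU, over a stretch where shLUC had 3 regions and hPSC 7.

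Position along the gene could be read from the start for the 7 genes with a strand, CDH2, CDH4, CDH8, CDH10, CDH12, CDH18 and CDH23. Their hPSC regions fell 8, 9 and 7 into the first, middle and last of 3 equal parts of the gene. In shLUC these counts were 12, 14 and 24, so 48.0% lay in the last part, and in shHNRNPU they were 10, 12 and 20 (47.6%). In 2761 long genes with a strand the last part held 30.2%, 31.4% and 30.7%. The last part was thus the fullest for the cadherin genes in the hairpin lists only, and CDH4 gave 13 of the 24 regions there in shLUC. Without CDH4 the shares were 20%, 39.3% and 42.3% in hPSC, shLUC and shHNRNPU. Few regions lay within 1 kb of a gene end: 3 of 41 in hPSC (7.32%; CDH1, CDH4 and CDH8), 2 of 62 in shLUC (3.23%; CDH4 and CDH23) and 2 of 53 in shHNRNPU (3.77%; CDH4 and CDH8). Long genes had 11.6%, 9.32% and 10.4% there, which lay inside the exact binomial intervals of the cadherin shares (1.54 to 19.9, 0.393 to 11.2 and 0.46 to 13.0).

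Density inside each gene was then compared with 500 kb on each side, assigning regions by their centre. In hPSC 8 of the 10 genes were less dense than their flanks, and in shLUC and shHNRNPU 5 of the 10 were. Among the 3327 genes of at least 100 kb with both flanks inside the span of annotated genes, 58.5%, 50.9% and 51.9% were less dense than their flanks in hPSC, shLUC and shHNRNPU. The counts in the hairpin lists were near this background. The hPSC count was above it, but with only 10 genes and no interval computed it is not read as a difference. CDH13 lay in denser surroundings in each list, with 9.37, 7.67 and 4.26 regions per Mb inside and 21, 17 and 14 in its flanks. CDH23 had 4.77 per Mb inside and 23 outside in hPSC, and 16.7 against 18 in shLUC. CDH12 and CDH18 lay in sparse surroundings, with flanks between 4 and 8 per Mb in all 3 lists. CDH1 stood above its flanks in hPSC, at 40.7 against 24 per Mb, and below them in shLUC, at 0 against 16. The flanks of CDH1 differed between the lists by less than the gene itself, 24 per Mb in hPSC and 16 in each hairpin list.

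**Figure D4:**
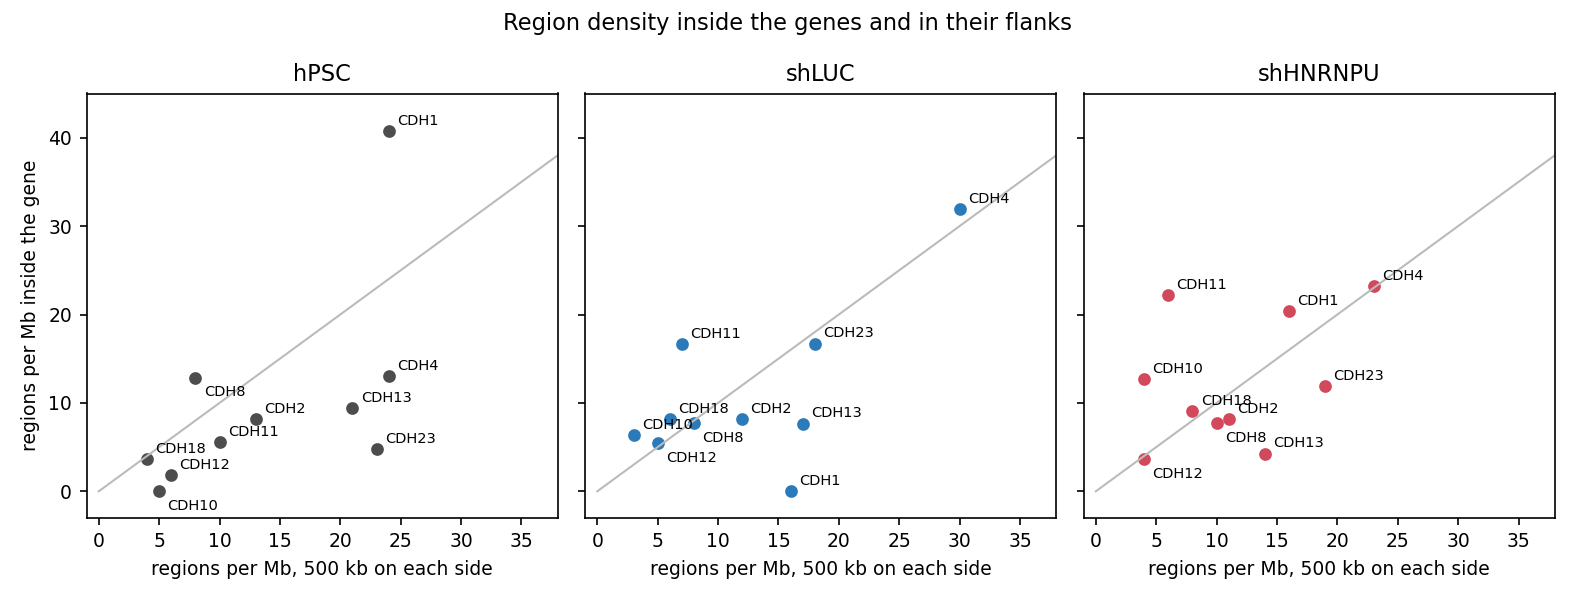
Regions per Mb inside each cadherin gene (y axis) against regions per Mb in 500 kb on each side (x axis), one panel for each list, with regions assigned by their centre. Points below the grey line of equal density are genes sparser than their flanks: 8 of 10 in hPSC, and 5 of 10 in each hairpin list.

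A further 48 genes of the cadherin system were counted from lists of other cadherins, catenins, non-clustered protocadherins, and the FAT, Dachsous and Flamingo families. They held 94 regions in hPSC, 126 in shLUC and 127 in shHNRNPU. In shHNRNPU 11 held more than in shLUC, 11 fewer and 26 the same number. Background shares with more and fewer were 13.2% and 17.7% over all protein-coding genes, and 24.7% and 38.9% over genes of at least 100 kb. In hPSC 13 held more than in shLUC, 22 fewer and 13 the same number. Here the background shares were 29.2% and 25.7% over all protein-coding genes, and 37.6% and 42.5% over genes of at least 100 kb. The 48 genes ran from 5.75 to 1851 kb in length, so neither background matched them in length. The hPSC total was lower than the shLUC total, as for the 10 genes, whereas the shHNRNPU total was 1 region above that of shLUC here and 9 below it there.

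Among the catenins, CTNNB1 (beta-catenin, which binds the cadherin tail and also carries Wnt signals) held 1, 3 and 3 regions in hPSC, shLUC and shHNRNPU. CTNNA1 (alpha-catenin of epithelia) held 4, 4 and 2, and CTNND1 (p120-catenin, which keeps cadherins at the membrane) held 3, 1 and 2. The very long CTNNA2, the neural alpha-catenin, held 7, 19 and 18, and CTNNA3 held 11, 16 and 16. CTNND2, the neural delta-catenin, ran the other way with 9, 4 and 7. The catenins as a list held 36, 47 and 48 regions.

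The other type I and II cadherins held 14, 12 and 13 regions, with CDH22 at 2, 2 and 3, CDH15 (M-cadherin of muscle) at 1, 3 and 2 and CDH6 at 3, 1 and 1. The desmosomal cadherins, which anchor intermediate filaments, held 4, 8 and 9, with DSG2 at 1, 2 and 3, DSC2 at 1, 2 and 2 and DSC3 at 2 in each list. The protocadherins counted here, all outside the protocadherin gene clusters, held 13, 28 and 27. PCDH15, which pairs with CDH23 in the tip link, held 7, 10 and 8, PCDH9 held 1, 6 and 6 and PCDH7 held 0, 4 and 3. The FAT, Dachsous and Flamingo genes, known for planar polarity, held 25, 29 and 28, with FAT3 at 14, 9 and 11, CELSR1 at 2, 5 and 4 and DCHS2 at 4, 3 and 3. Among the remaining CDH genes, CDH26 held 2 in each list and CDH16 and CDH17 held 0 in all 3.

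The genes nearest to CDH1, CDH2 and CDH13 in density were found by the summed absolute difference in regions per Mb over the 3 lists. ESYT2 and CAMSAP1 each held 5, 0 and 2 regions in hPSC, shLUC and shHNRNPU, the same counts as CDH1 in genes of nearly the same length, and VRTN held 3, 0 and 1, out of 6268 genes of at least 50 kb. NUP98, MAP2K4 and CPM, each with 1 region in every list, came nearest to CDH2 out of 3355 genes of at least 100 kb. ZBBX, HDAC8 and SDCCAG8, each with 2, 2 and 1 regions, came nearest to CDH13. The likeness is a description over 3 values per gene.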

How the data were processed

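MAR-seq regions of H1 cells were taken from 3 deposited lists, 1 for each group of 2 samples. Whether the authors pooled the samples, and how regions were called, is not given in the sources used here. The submitters' processing notes name cutadapt, Bowtie2, SAMtools, MACS2, deepTools and the build hg38, without versions or roles. The paper that came with these data covers different assays, and its methods were not used. The deposited lists hold positions and a score, and the authors' score was 0 for every region, so only positions were used. All regions were 400 bp wide. Read depth is unknown.

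Regions were assigned to genes by an overlap of at least 1 bp with the RefSeq gene table (GRCh38.p14). Strand was taken from the RefSeq promoter table, and exons were not analysed here. With 1 list per group no test was made. Exact 95% Poisson intervals for densities and exact (Clopper-Pearson) binomial intervals for shares cover counting error only, and ratios of counts have intervals from the exact binomial split.

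All 10 genes are named, with CTNNA1, CTNNB1, CTNND1, up to 3 genes of each further list with the most regions and the 3 genes nearest in density to CDH1, CDH2 and CDH13. The genes and lists were chosen with earlier results of these data known. Counting was tested on simulated lists with known answers, with 0 errors in 2040 checks. The code ran in Python 3.11.15 with scipy 1.17.1 for intervals, pandas 2.3.3 and numpy 2.4.6 for tables, and matplotlib 3.10.9 for plots.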

Additional observations from a re-analysis of the deposited data

How the results depend on the processing

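Of 205 values recomputed under other settings, all but 2 stayed inside the counting interval of the reported value, within 1.5 times a reported count or, for spacing, within 1 SD. For the density over the 10 genes in shLUC, the median of the gene densities was 7.93 per Mb in place of the pooled 11.2. With flanks of 1 Mb in place of 500 kb, 3 genes were sparser than their flanks in shHNRNPU in place of 5, and the cause was not tested. The remaining alternatives, none of which moved a value further, were assigning regions by their centre, merging regions under 1 kb apart, widening genes by 10 kb, leaving out regions within 1 kb of a gene end, requiring 50% overlap of both regions, scaling by list length, leaving out CDH4, and taking all 8 other genes in place of the 6 neural ones. Leaving out CDH1, taking CDH2 alone and leaving CDH4 out of the neural genes were added after seeing the data. For CDH1 and CDH2 against the neural genes in hPSC, the interval reached 0 with regions assigned by centre (1.38, -0.17 to 2.67), without gene ends (1.48, -0.08 to 2.77) and with CDH2 alone (0.29), which also turned the sign in shHNRNPU (-0.08). Many of the counting intervals were wide, so values inside them could still differ much, and merging regions changed no value. No paired analysis was possible because the 2 samples of a group share 1 list, and no replicate could be left out for the same reason.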
